A study of Mus musculus with 2 samples.

Results

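Collagen chain genes are the genes that encode the alpha chains of collagen proteins. They were chosen by name alone: every gene whose symbol in the array's platform annotation is Col, a number, the letter a and a number. The rule found 42 genes with 82 probe sets, of 18193 genes with a named probe set and 45037 probe sets in all. A probe set is a group of short oligonucleotides on the array that together read a transcript, and some kinds can match several transcripts. Its value here is a linear signal intensity. The cells were cultures of myoblasts from mouse skeletal muscle, precursors that divide and later fuse into fibres. They were either wild type (WT) or knocked out (KO) for Foxj3, the gene of a forkhead transcription factor. Each genotype was represented by 1 culture and 1 array. The titles mark both cultures P3. Both were kept in DMEM with 20% fetal bovine serum and antibiotics and taken at 80% confluence. The sources used here do not give the strain, age or sex of the animals, the muscle of origin, the number of animals behind a culture or the deleted part of Foxj3. With no replicate culture, the spread between cultures is unknown. No test was made, and every ratio describes these 2 arrays, whose number limits the precision of all values.

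Collagens are built from 3 alpha chains wound into a helix. Fibrillar collagens form the ropes of connective tissue, type IV collagens form the sheet of the basement membrane, and type VI collagens form beaded filaments that lie next to that sheet. FACIT collagens (fibril-associated collagens with interrupted helices) sit on the surface of fibrils. The remaining classes include network-forming, anchoring, membrane-spanning and heparan sulfate-bearing collagens. In skeletal muscle each fibre is wrapped in a basement membrane, and the loss of type VI collagen chains causes muscular dystrophies.

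As a class-wise picture, most fibrillar and type IV chains read higher on the KO array, type VI chains differed little, and most FACIT chains read lower. By their brightest probe sets 20 of 35 measured collagen genes (57.1%) had a ratio above 0, against 46.3% of all measured genes. The median log2 ratio of KO over WT was 0.47 over 9 measured fibrillar genes, 0.62 over 6 Col4 genes, 0.14 over 4 Col6 genes, -0.21 over 9 FACIT genes and -0.19 over 7 other collagen genes. Over all 35 measured collagen genes the median was 0.07, beside -0.06 over all 14597 measured genes. A gene counted as measured if a probe set lay over a detection floor of 47.04, the 40th percentile of the pooled values, on at least 1 array. Each gene was read by its brightest probe set, and values under the floor were set to the floor. A ratio with 1 array under the floor is therefore a bound. The ratios of probe sets of the same gene had a within-gene SD of 0.66 over 4752 genes of the whole array, and 0.57 over the 12 collagen genes for which at least 2 could be compared on both arrays. Most single-gene ratios of collagens were smaller than either SD.

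The largest differences were in 4 genes. Col9a2, Col4a2 and Col18a1 were at least 2-fold higher on the KO array by their brightest probe sets, and Col19a1 was at least 2-fold lower by its brightest probe set. The Col19a1 call rests on a near tie in brightness with a probe set that read 1.56-fold higher. The Col18a1 call rests on a near tie too, with a probe set that read only 1.15-fold higher. That is 3 of 35 measured collagen genes higher, beside 3.73% of all measured genes, and 1 of 35 lower, beside 6.72%. Counts this small do not set the collagens apart from the other genes. By probe set, 5 of 54 measured collagen probe sets lay past 2-fold upward and 2 past 2-fold downward, where the shares over all measured probe sets were 5.44% and 6.29%.

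**Figure D1:**
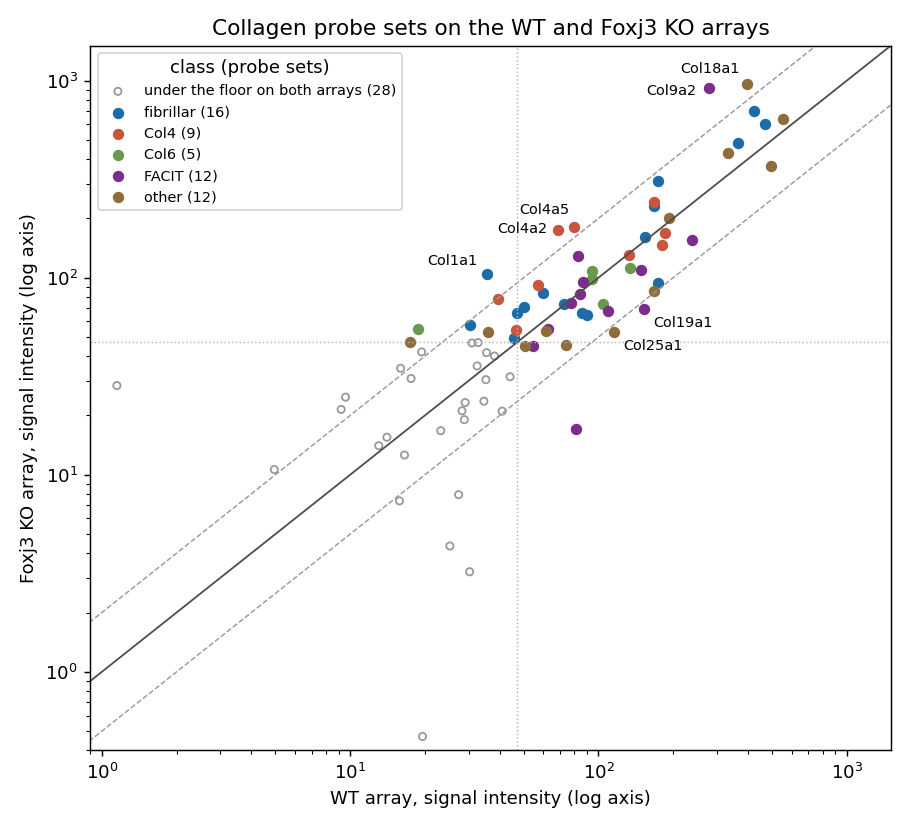
Signal of each of the 82 collagen probe sets on the WT array (x axis) and the KO array (y axis), both log axes, coloured by class where at least 1 array was over the floor. The solid line marks equal signal, dashed lines 2-fold, dotted lines the floor of 47.04; named points are the 7 measured probe sets at least 2-fold apart, 5 above the upper dashed line and 2 below the lower one. The 3 unnamed coloured points outside the dashed lines, from Col20a1, Col6a5 and Col8a1, have 1 value under the floor and are within 2-fold once it is raised to the floor.

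Stretches upstream of the start of 5 collagen genes are shown, although the ratios come from array signal alone and do not use them. Col9a2 and Col18a1 had the largest ratios among the bright collagen genes by their brightest probe sets. Col4a5 and Col4a6 start from opposite strands of the same stretch of the X chromosome and were both higher on the KO array. Col1a2 was the fibrillar gene with the largest ratio. The sequences are RefSeq's for GRCm38.p6, given 5′ to 3′ on the strand of the gene and ending before its outermost annotated start: chr4:121039316-121039565 for Col9a2 (plus strand), chr10:77166531-77166780 for Col18a1 (minus strand), chrX:141475169-141475369 for Col4a5 (plus strand), chrX:141474096-141474326 for Col4a6 (minus strand) and chr6:4505368-4505617 for Col1a2 (plus strand). Capitals mark E-boxes (CANNTG, the letters bound by myogenic bHLH factors) and CCAAT boxes (CCAAT or its reverse complement).
Col9a2: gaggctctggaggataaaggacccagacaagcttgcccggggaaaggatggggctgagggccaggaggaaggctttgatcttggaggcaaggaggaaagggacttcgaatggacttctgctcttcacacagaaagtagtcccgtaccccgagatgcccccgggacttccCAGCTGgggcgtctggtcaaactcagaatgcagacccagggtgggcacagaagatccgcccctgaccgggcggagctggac
Col18a1: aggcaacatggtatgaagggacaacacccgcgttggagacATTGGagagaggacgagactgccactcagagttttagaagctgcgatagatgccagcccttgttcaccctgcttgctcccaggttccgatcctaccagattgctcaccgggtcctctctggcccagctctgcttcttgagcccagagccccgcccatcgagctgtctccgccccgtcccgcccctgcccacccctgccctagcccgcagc
Col4a5: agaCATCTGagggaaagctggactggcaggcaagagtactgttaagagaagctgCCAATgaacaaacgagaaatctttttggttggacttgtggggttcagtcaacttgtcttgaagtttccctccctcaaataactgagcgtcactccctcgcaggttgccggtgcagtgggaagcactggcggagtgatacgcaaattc
Col4a6: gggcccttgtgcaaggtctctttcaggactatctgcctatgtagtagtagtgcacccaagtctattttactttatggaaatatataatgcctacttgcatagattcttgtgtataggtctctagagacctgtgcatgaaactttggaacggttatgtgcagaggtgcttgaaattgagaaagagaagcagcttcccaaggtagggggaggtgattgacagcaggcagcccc
Col1a2: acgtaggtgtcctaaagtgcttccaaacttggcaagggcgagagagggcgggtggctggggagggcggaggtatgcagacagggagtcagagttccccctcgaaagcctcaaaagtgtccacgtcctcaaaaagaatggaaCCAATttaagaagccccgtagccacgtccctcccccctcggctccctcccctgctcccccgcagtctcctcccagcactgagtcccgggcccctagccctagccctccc

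Col9a2 and Col4a5 each hold 1 E-box in these stretches, and Col18a1, Col4a5 and Col1a2 each hold 1 CCAAT box. The forkhead motif GTAAACA and the MEF2 motif were in none of the 5. RefSeq promoter windows of 300 bases were at hand for 33 of the 42 members, in 36 windows. On both strands, 1 of the 36 windows (2.78%) held GTAAACA, that of Col6a1, against 3.65% of all 32851 windows. The MEF2 motif was in 1 window, that of Col13a1 (2.78%, against 3.19%). E-boxes were in 18 of 36 windows, against 72.3% of all windows, and CCAAT boxes in 13 (36.1%, against 37.4%). These are counts of letters and not of bound sites.

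The array as a whole gave context for the ratios. Median signal over all probe sets was 62.03 (WT) and 63.94 (KO), and collagen probe sets lay close to this at 58.37 and 60.97. Of the 82 collagen probe sets, 42 were over the floor on both arrays, 4 on the WT array alone, 8 on the KO array alone and 28 on neither. Measured collagen genes had a median brightness (geometric mean of both arrays) of 101, against 144 for all measured genes. The brightest Foxj3 probe set read 495.51 (WT) and 77.28 (KO), another read 79.74 and 99.40, and the last was under the floor on both. All 8 myoblast markers, among them Myf5 and Pax7, were over the floor on both arrays, as the labelled cell type requires. Their summed signal was 6056 (WT) and 5987 (KO). Within it Myod1 read 631 and 1751 and Des 2024 and 1091, but the other Des probe set read 78.74 and 139.24. By their brightest probe sets 3 of the 8 were higher on the KO array and 5 lower, among these Cdh15 (386 and 264) and Itga7 (659 and 430). Probe sets outside the sum differed more. Vcam1 read 687 and 730 by its brightest, but 68.91 and 414.76 and 51.07 and 400.71 at dimmer ones. The other Pax7 probe set read 68.95 and 166.62, and Ncam1 probe sets went both ways. The part of such differences between the cultures in the collagen readings was not tested.

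Fibrillar collagens were higher on the KO array in 8 of 9 measured genes by their brightest probe sets, each by less than 2-fold, where 46.3% of all measured genes had a ratio above 0. Col1a2, which encodes the second chain of type I collagen, the main collagen of tendon and muscle connective tissue, read 423 (WT) and 701 (KO), 1.66-fold higher. Its other probe sets read 173.58 and 308.99, a log2 ratio of 0.83, and 45.69 and 49.27 near the floor. The pair over the floor on both arrays thus differed by 0.10 on the log2 scale, the closest agreement of any collagen gene. Its partner chain Col1a1 was dim. It read 59.76 and 83.72 (1.40-fold higher) by its brightest probe set and 35.57 and 104.59 by the other, which was under the floor on the WT array and gives at least 2.22-fold. The probe sets were nearly equal in brightness, and Col1a1 counts as past 2-fold when the arrays are scaled to equal medians over the floor.

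Col3a1, the chain of type III collagen of reticular fibres, read 365 and 481 (log2 ratio 0.40), while its other probe set was under the floor. The type V chains, which start and limit the width of type I fibrils, were each read 1.29-fold to 1.41-fold higher by their brightest probe sets. Col5a1 read 168.14 and 232.29, with 153.85 and 160.48 at its second measured probe set. Col5a2 read 468 and 605, but its second probe set went the other way at 174.12 and 94.32 (log2 ratio -0.88). Col5a3 was at the floor on the WT array, at 47.05 and 66.22. For Col5a2 the direction thus depended on the probe set, and the mean over both was -0.26.

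Chains of cartilage fibrils were near the floor. Col11a2, a type XI chain, read 49.98 and 71.32, and Col2a1, the chain of type II collagen, read 72.76 and 73.86. Col27a1 was the single fibrillar gene lower on the KO array, at 90.06 and 64.30 by the brighter probe set (log2 ratio -0.49) and 85.56 and 66.10 by the other (-0.37). Col11a1 and Col24a1 were under the floor with all their probe sets.

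**Figure D2:**
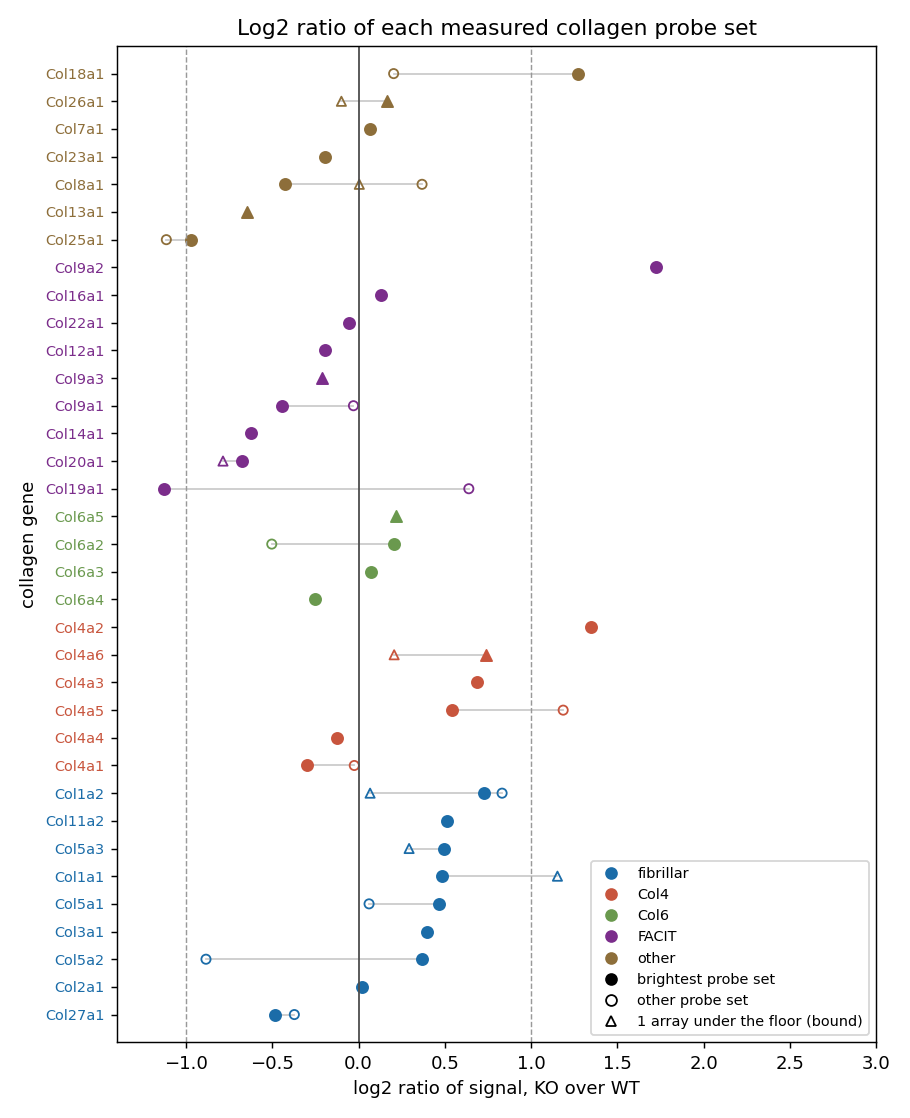
Log2 ratio of signal, KO over WT (x axis), of every measured probe set of the 35 measured collagen genes (y axis), coloured and grouped by class and sorted by ratio within a class. Filled symbols are the brightest probe set of a gene, open symbols its others, triangles ratios that are bounds because 1 array was under the floor; dashed lines mark 2-fold. Fibrillar genes other than Col27a1 lie right of 0 by their brightest probe set, and grey bars that cross 0 show genes such as Col19a1 and Col5a2 whose probe sets differ in direction.

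Type IV collagen, the scaffold of the basement membrane, is made in 3 combinations of 6 chains. In the widespread combination of Col4a1 and Col4a2, the readings parted. Col4a1 read 179.52 (WT) and 145.74 (KO), and 132.85 and 130.58 at its other probe set. Col4a2 read 68.85 and 175.05 by its only probe set, 2.54-fold higher. The chains' log2 ratios of -0.30 and 1.35 differ by 1.65. By RefSeq's promoter table these genes start 21 bases apart on opposite strands, and their windows overlap. Col4a2 has no second probe set to set beside this value.

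Among the chains of specialised basement membranes, Col4a5 read 166.78 and 242.78 (1.46-fold higher) and 79.40 and 180.66 (log2 ratio 1.19) by its probe sets, both in the same direction. Col4a6 read 39.55 and 78.36, at least 1.67-fold higher, and 46.47 and 54.27, each under the floor on the WT array. The promoter table puts the starts of this pair 1343 bases apart, on opposite strands. Both genes are X-linked, and the sources used here do not give the sex of the cultures. Col4a3 read 56.98 and 91.88 (log2 ratio 0.69). Col4a4, its neighbour on the chromosome, read 185.06 and 169.55 (log2 ratio -0.13). The other probe sets of Col4a4 were under the floor, at 19.40 and 42.02 and at 16.55 and 12.59, as was that of Col4a3. In all, 4 of 6 Col4 genes had ratios above 0. The median of 0.62 became 0.088 when the floor was raised to the 60th percentile.

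Type VI collagen showed the smallest ratios. Col6a2 read 93.95 and 108.21 by its brightest probe set, and 104.41 and 73.67 by its other (log2 ratios 0.20 and -0.50). Both probe sets are of kinds that can match several transcripts. Col6a3, which encodes the longest chain of the filament, read 93.99 and 98.61. Col6a1, which pairs with them in the protein, was under the floor at 28.84 and 19.04. Col6a4 read 133.70 and 112.39, with 35.21 and 30.37 at its other probe set, and Col6a5 read 18.75 and 54.68, which is a bound of at least 1.16-fold higher. With the floor at the 20th percentile this bound became at least 2.17-fold. The other Col6 genes were within 2-fold by each measured probe set, and the class median of 0.14 turned to -0.04 when probe sets were averaged.

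Among FACIT collagens 7 of 9 measured genes read lower on the KO array by their brightest probe sets, with Col9a2 as the opposite extreme. Of all measured genes 46.3% had a ratio above 0. The 7 include Col19a1, whose probe sets differed in direction. Col9a2 encodes a chain of type IX collagen, which coats cartilage fibrils. It read 278.86 (WT) and 921.34 (KO), 3.30-fold higher (log2 ratio 1.72), the largest ratio of all collagen genes, from its only probe set. The chains it assembles with did not share this: Col9a1 read 148.97 and 109.33, and 84.15 and 82.44, and Col9a3 read 54.58 and 44.97, with its others under the floor. The log2 ratios of the 3 type IX chains thus spanned 2.17, the widest of the multi-chain collagens compared. Markers of chondrocytes stood as follows. Of 6, 3 were measured, with a summed signal of 366 (WT) and 536 (KO), of which Sox9, a transcription factor of cartilage, took 248.89 and 431.58. Sox9 read 19.60 and 131.01, at least 2.79-fold higher, at another probe set. Comp read 77.96 and 46.16 and Matn1 39.17 and 58.26. Acan, the main cartilage proteoglycan, was under the floor at 38.48 and 42.73, as were Matn3 and Hapln1. Their part in the Col9a2 reading was not tested.

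Col19a1, which encodes a FACIT chain first described in a muscle tumour line, had the lowest ratio and the least agreement. It read 152.45 and 69.64 (2.19-fold lower) by its brightest probe set and 82.42 and 128.36 (1.56-fold higher) by another of nearly the same brightness. The third was under the floor at 30.93 and 46.64. Its log2 ratios of -1.13 and 0.64 were 1.77 apart, the widest gap within a collagen gene, so no direction can be given. Col14a1, a fibril-coating collagen of tendon and skin, read 238.25 and 154.49 (1.54-fold lower), and its others were under the floor at 32.77 and 46.86 and at 9.20 and 21.46. Col20a1 read 108.79 and 68.04, with 81.10 and 16.98 at a second probe set, at least 1.72-fold lower. Col12a1 (62.81 and 54.83), Col22a1, a chain of the muscle-tendon junction (77.18 and 74.40), and Col16a1 (86.27 and 94.57) were within 1.15-fold.

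Of the other collagens, Col18a1 and Col25a1 differed most. Col18a1 encodes a basement membrane collagen whose end fragment is endostatin. It read 398 and 963 (2.42-fold higher) by a probe set that can match several transcripts, and 553 and 636 (1.15-fold) by the other. RefSeq's table gives this gene 2 start windows. Both probe sets were bright and went the same way, and their log2 ratios differed by 1.07. Col25a1 encodes a membrane-spanning collagen that developing muscle needs for its innervation. It read 167.81 and 85.72, 1.96-fold lower, and 115.21 and 53.22, 2.16-fold lower. The readings were 0.15 apart on the log2 scale, so that Col25a1 was the collagen gene with the most lowered signal among those whose probe sets agreed in direction. Averaged over its probe sets its log2 ratio was -1.04, the single collagen gene past 2-fold lower in that reading.

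Col13a1, a membrane-spanning collagen of the neuromuscular junction, read 73.68 and 45.69, at least 1.57-fold lower. Col8a1, a network-forming chain, was bright and split: it read 494 and 368 by its brightest probe set, 333 and 430 by another, and 17.37 and 47.18 by the last. Col7a1, the chain of the anchoring fibrils of skin, read 191.52 and 200.22. Col23a1 (61.29 and 53.57) and Col26a1 (35.76 and 52.83) lay near the floor. Col8a2, Col10a1, Col15a1 and Col17a1 were under the floor on both arrays. With Col11a1, Col24a1 and Col6a1 these make up the 7 members that were not measured. Col6a6, Col21a1 and Col28a1 were not matched to a probe set by the rule.

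How far the probe sets of a gene agreed varied among the members. In the 12 collagen genes that at least 2 probe sets measured on both arrays, 8 had all their ratios in the same direction: Col1a2, Col4a1, Col4a5, Col5a1, Col9a1, Col18a1, Col25a1 and Col27a1. The genes whose ratios differed in direction were Col5a2, Col6a2, Col8a1 and Col19a1. Over all genes of the array the share with the same direction was 42.5% of 4752 genes, a set that includes genes with more than 2 probe sets. By brightest probe sets, chains that assemble together had close log2 ratios in type I (0.49 and 0.73) and type V (0.37 to 0.49). Col6a2 and Col6a3 were also close (0.20 and 0.07). Other probe sets lay further off, at 1.15 or more for Col1a1, -0.88 for Col5a2 and -0.50 for Col6a2. Col4a5 read 0.54 and Col4a6 at least 0.74, so their closeness is not settled. The ratios of Col11a2 and Col2a1 spanned 0.49, and those of Col4a3, Col4a4 and Col4a5 spanned 0.82. The Col4a1 and Col4a2 pair and the type IX chains were widest apart, at 1.65 and 2.17. Among neighbours on a chromosome, Col3a1 and Col5a2 had close ratios by their brightest probe sets (0.40 and 0.37). The other Col5a2 probe set read -0.88. Col9a1 and Col19a1 read -0.45 and -1.13, but Col19a1 read 0.64 at a probe set of nearly the same brightness. Col4a4 and Col4a3 read -0.13 and 0.69.

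Genes that modify, fold and secrete collagen chains read in both directions. Of 30 listed genes 26 had a probe set and 24 were measured, with 3 at least 2-fold higher (all genes 3.73%), 1 at least 2-fold lower (all genes 6.72%) and a median log2 ratio of -0.16. Serpinh1, the collagen-specific chaperone HSP47, read 817 (WT) and 2272 (KO), 2.78-fold higher, and 1043 and 1488 at its other probe set. Loxl4, a lysyl oxidase that crosslinks collagen, read 36.84 and 197.69, at least 4.20-fold higher. Bmp1, the protease that cuts the end piece from procollagens, read 153.18 and 315.31 (2.06-fold higher). P4ha2, a subunit of the prolyl hydroxylase that stabilises the helix, read 250.03 and 123.82 (2.02-fold lower). Its relative P4ha1 read 503 and 342, but 12.83 and 95.98 at its other probe set. The median of this list turned to 0.038 with the mean over probe sets.

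Collagen receptors and degradation genes were likewise mixed. Itgb1, the beta chain of the collagen-binding integrins, read 167.57 and 490.11 (2.92-fold higher), and its other measured probe sets, at 102.20 and 463.57 and at 42.67 and 223.94, went the same way. It was the only one of 9 measured receptor genes past 2-fold by its brightest probe set. Over all measured genes 3.73% lay past 2-fold upward and 6.72% downward. The integrin alpha chains Itga1, Itga2 and Itga10 were each under the floor on 1 array. The discoidin receptor Ddr1 read 1017 and 841 and Ddr2 593 and 484, although Ddr2 read 219.87 and 448.78 at its other probe set. A dimmer Ddr1 probe set read 32.18 and 165.12, at least 3.51-fold higher, while its remaining ones were lower on the KO array. Cd44, which also binds collagen, read 3248 and 3238 by its brightest probe set, but 1259 and 2536 and 131.84 and 327.52 at dimmer ones. The receptor median was -0.11, and 0.33 with the mean over probe sets. Of 9 measured degradation genes none reached 2-fold by its brightest probe set (all genes 3.73% higher and 6.72% lower), and the median was 0.03. The collagenase inhibitor Timp1 read 2378 and 1391 (1.71-fold lower) and Timp4 140.18 and 100.58, the largest ratios of that list. Timp2 read 1552 and 1997, but 162.12 and 717.65 and 102.82 and 350.01 at dimmer probe sets (4.43-fold and 3.40-fold higher). Its others read 832.14 and 901.23, 28.59 and 228.57 (at least 4.86-fold higher), and 256.46 and 197.57, its only lower reading.

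Among proteins that bind collagen in the matrix, 12 of 14 were measured, with a median log2 ratio of 0.05. Bgn, which encodes the small proteoglycan biglycan, was the single one past 2-fold by its brightest probe set, at 545 and 189 (2.89-fold lower). Of all measured genes 6.72% lay past 2-fold lower and 3.73% past 2-fold higher. Bgn also gave 216.74 and 83.45 at another probe set, and 278.16 and 200.99 at the last, all lower on the KO array. Fmod, which encodes the related fibromodulin, read 168.69 and 206.34, but 88.07 and 229.73 and 67.36 and 179.94 at dimmer probe sets (2.61-fold and 2.67-fold higher). Lamb1, a laminin chain, read 1053 and 1212, but 29.13 and 295.50 at a dimmer probe set, at least 6.28-fold higher. In the list of TGF-beta signalling, which drives collagen genes in many cells, 10 genes had a probe set and were measured, of which 1 lay past 2-fold upward (all genes 3.73%) and 3 downward (all genes 6.72%), with a median of -0.07. Tgif1, a repressor of that pathway, read 199.38 and 1023.11. Tgfb3 read 197.59 and 66.56, Ccn2 read 179.08 and 73.78, and Smad7 read 378.30 and 174.50, with 147.27 and 193.04 at its other probe set.

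**Figure D3:**
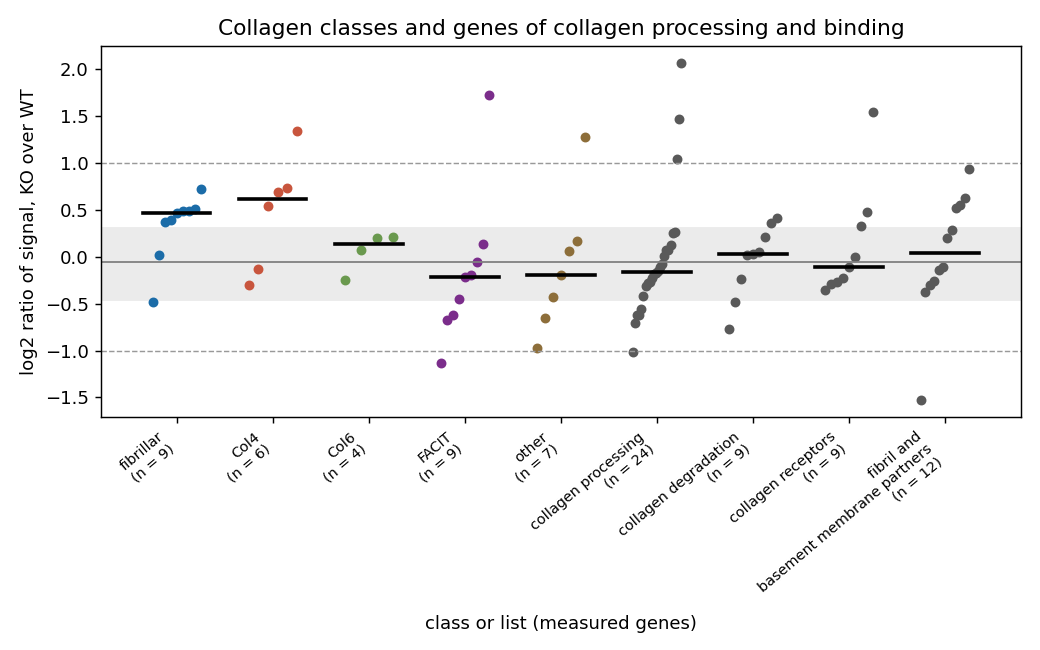
Log2 ratio of KO over WT (y axis) of each measured gene by its brightest probe set, in the 5 collagen classes and 4 lists of genes that process, degrade or bind collagen (x axis, with the number of measured genes). Black bars are medians, the grey line and band the median and middle range (25th to 75th percentile) of all measured genes, dashed lines 2-fold; 8 of 9 fibrillar and 4 of 6 Col4 genes lie above 0, with medians of 0.47 and 0.62, and 7 of 9 FACIT genes lie below 0, where 46.3% of all measured genes lie above 0.

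Markers of other cells that a myoblast culture can hold were read alongside the fibrillar collagens, which fibroblasts make in quantity. Of 8 fibroblast markers 5 were measured, with a summed signal of 10575 (WT) and 10322 (KO). Vim, which myoblasts also express, made up most of it, and without Vim the sums were 576 and 598. Pdgfra read 454 and 389, Fbln1 55.83 and 85.61, Tcf21 42.18 and 56.37, and Dcn, which also stands among the collagen-binding proteins, 24.06 and 67.49. Thy1, Lum and Dpt were under the floor on both arrays. Dcn and Tcf21 were under the floor on the WT array, so that their ratios are bounds, for Dcn at least 1.43-fold higher. The other measured fibroblast markers were within 2-fold, and the part of these markers in the fibrillar collagen readings was not tested. In bulk RNA, fewer cells of a type and less RNA per cell cannot be told apart. Of 6 endothelial markers 3 were measured, with sums of 184 and 259, and Pecam1 was under the floor at 23.60 and 31.95. Esam read 45.06 and 94.66, at least 2.01-fold higher, and Cdh5 28.30 and 63.12, both under the floor on the WT array. Kdr read 110.20 and 101.27. Smooth muscle and pericyte markers summed to 7099 and 7005 over 4 of 7 genes, with Pdgfrb and Cspg4 under the floor. Within that sum Tagln read 626 and 1749 and Myh11 337.84 and 84.77. Schwann cell markers summed to 821 and 272 over the 3 genes with a probe set, of which Erbb3 took 628.48 and 46.94. The other Erbb3 probe set went the other way, at 53.74 and 64.45. Sox10 read 87.98 and 113.92, with 84.06 and 55.34 at its other measured probe set, and S100b read 104.96 and 110.79. Macrophage markers summed to 690 and 585 over 4 of 6, with Cd68 and Itgam under the floor. The part of these cells in the collagen readings was not tested either.

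**Figure D4:**
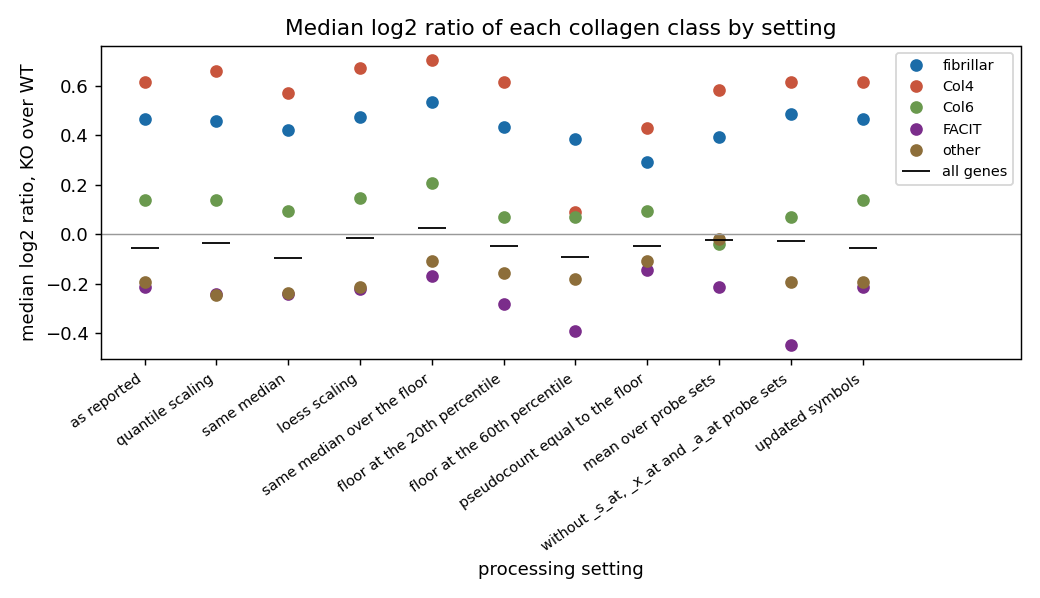
Median log2 ratio of KO over WT (y axis) of the 5 collagen classes (coloured points) and of all measured genes (black dashes) as reported and under 10 alternative settings (x axis). The fibrillar median stayed between 0.29 and 0.54 and the FACIT median between -0.45 and -0.14, while the Col4 median dropped to 0.088 under the higher floor and the Col6 median crossed 0 with the mean over probe sets.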

How the data were processed

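Total RNA from 1 WT and 1 Foxj3 KO myoblast culture was made into biotin-labelled cRNA and hybridised to 1 array each, per the labels' protocols. The deposited value table gives 1 signal intensity, on a linear scale, for each probe set of an array. The way the authors summarised probes and scaled arrays is not given in the sources used here. Values were used as deposited. The scan records of the arrays held 42 fields, of which 40 were identical.

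Probe sets with 1 symbol in the platform annotation were named by it (34945 of 45037), and no collagen symbol changed when brought up to date through Entrez identifiers. A gene was read by the probe set whose mean log2 value was highest after raising values to the floor, the 40th percentile of both arrays together. With no replicates, no p-value was computed and genes were counted at 2-fold. Collagen classes, 12 further lists and the members were chosen with earlier results of these data known. The rule for printed values was collagen genes at least 2-fold different by any probe set and the 2 brightest of each class, and in other lists the genes past 2-fold, or else the 2 with the largest ratios. Further members and markers were added after their values were seen. The calculation was checked on simulated data. Alternatives were quantile, median and loess scaling (span 0.3), other floors (20th and 60th percentile), a pseudocount, other probe set rules, updated symbols and other fold thresholds (1.5 and 3). Python 3.11.15, numpy 2.4.6, pandas 2.3.3 and statsmodels 0.14.6 were used.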

Additional observations from a re-analysis of the deposited data

How the results depend on the processing

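The class medians kept their sign under all 10 alternatives, except Col6 (-0.04 with the mean over probe sets). A median counted as moved if it shifted by more than the standard error that the within-gene SD gives a median of that many genes. By that measure the Col4 median moved to 0.088 with the higher floor (60th percentile), and the medians of processing and receptor genes moved to 0.038 and 0.33 with the mean over probe sets. The number of collagen genes at least 2-fold higher was 3, and 6 at a 1.5-fold and 1 at a 3-fold threshold. It was 2 with quantile scaling, the mean over probe sets and without probe sets that can match several transcripts (each time without Col18a1) and with the pseudocount (without Col4a2). It was 4 with the lower floor (20th percentile), which added Col6a5, and with equal medians over the floor, which added Col1a1. The number lower was 1. It was 0 with quantile scaling, with the higher floor, with a pseudocount equal to the floor and at 3-fold, 2 with equal array medians, and 5 at 1.5-fold. Col9a2 was in the higher set under every scaling, floor and probe set rule (log2 ratio 1.57 to 1.81). Col4a2 fell short of 2-fold only with the pseudocount (0.94). With quantile scaling another probe set became the brightest for Col18a1, whose ratio became 0.18 (0.74 with the mean over probe sets, 0.20 without probe sets that can match several transcripts), and for Col19a1, whose ratio reversed to 0.66. Scaling to equal medians over the probe sets above the floor on both arrays, an alternative chosen after seeing the data, raised the median of all genes from -0.06 to 0.03 and the collagen median from 0.07 to 0.16, and the share of lower genes among those at least 2-fold different fell from 64.3% (544 higher, 981 lower) to 52.3% (708 and 776). Col1a1 was then read by its other probe set, at 1.19. No paired analysis was possible because each group had 1 array. Signals near or under the floor limit what can be said of Col1a1, Col2a1, Col5a3, Col11a2, Col4a3, Col4a6 and the Col6 genes other than Col6a4. The same holds for Col9a3, Col12a1, Col13a1, Col23a1 and Col26a1.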
